A study of Mus musculus with 17 samples.

Results

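Interferon-stimulated genes are the genes that cells switch on when they sense interferon, and many of their products block the growth of viruses. A set of 37 such genes was read here in 6 populations of mouse bone marrow stem and progenitor cells. The members were taken by gene name out of the 28090 gene names on the array, and each was represented by its non-control probe with the highest mean over all arrays. The set was chosen by name and not by level, although earlier results of these data were known when it was drawn up.

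The populations came from the bone marrow of female C57Bl/6 mice of 6 to 8 weeks, with 10 to 20 mice pooled for a replicate. Marrow was depleted of cells bearing the lineage markers B220, CD3, GR-1 and Ter119, enriched for c-kit, and sorted by flow cytometry. Long-term hematopoietic stem cells (LT-HSC), short-term hematopoietic stem cells (ST-HSC) and multipotent progenitors (MPP) carry Sca-1 and are called the HSC subsets here. The myeloid populations were sorted separately as cells without Sca-1; they are common myeloid progenitors (CMP), granulocyte-macrophage progenitors (GMP) and megakaryocyte-erythroid progenitors (MEP). LT-HSC had 2 arrays and each other population had 3, which gave 17 Agilent single-color arrays. The labels name one LT-HSC array as replicates 2 and 3 pooled, and every population had an array without a number. Nothing in the labels says that arrays with the same number came from the same mice, and the p-values measure the spread between these arrays.

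Type I interferons bind the receptor pair Ifnar1 and Ifnar2, and the kinases Jak1 and Tyk2 then activate a complex that holds Stat2 and Irf9 and binds a promoter element called the interferon-stimulated response element, or ISRE. Interferon gamma acts through Ifngr1 and Ifngr2 and another element, the gamma-activated site, or GAS. Interferons are known to drive quiescent stem cells into division, and stem cells are known to keep some of these genes on without infection. The Mx1 gene of C57BL/6 mice is a defective allele, so a level of its transcript says nothing about the protein.

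Promoter sequences are shown first because interferons act through these elements, although the members were chosen by gene name and not by an element. Of the 37 members, 29 had a promoter window in RefSeq (build GRCm38.p6), each running from 250 bases before to 50 bases after an annotated start. Irgm was matched as Irgm1 and Trim30 as Trim30a. Mx1, Mx2, Oas2, Usp18, Iigp1, Gbp4, Tap2 and Parp14 had no window. The core of the ISRE was searched as GAAANNGAAA on both strands, where N is any base, so that on the reverse strand it reads as a pair of TTTC blocks. It was found in 18 of the 29 members and in 19 of their 36 windows (52.8%), against 1131 of all 32851 windows (3.44%). The GAS letters TTCNNNGAA, which read the same on both strands, were found in 8 members and in 8 of 36 windows (22.2%), against 2726 of all windows (8.3%). The 2 elements overlapped in 2 member windows. Stretches of 40 bases are given 5′ to 3′ on the strand of the gene, with the core in capitals. The first 5 are from members that were higher in the HSC subsets on every array, and the last 4 are from members whose arrays overlapped between the 2 sides.
Ifit1: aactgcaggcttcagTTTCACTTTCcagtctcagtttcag
Ifit3: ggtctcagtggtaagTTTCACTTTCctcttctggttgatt
Rsad2: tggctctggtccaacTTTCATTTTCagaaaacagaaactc
Igtp: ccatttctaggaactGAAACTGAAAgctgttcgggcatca
Gbp2: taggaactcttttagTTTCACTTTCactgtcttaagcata
Isg15: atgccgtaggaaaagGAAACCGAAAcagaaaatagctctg
Oas3: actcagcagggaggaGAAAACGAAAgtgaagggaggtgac
Irgm: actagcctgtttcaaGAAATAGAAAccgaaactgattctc
Stat2: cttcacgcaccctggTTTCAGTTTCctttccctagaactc

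The Ifit1 stretch is chr19:34640770-34640809 on the plus strand, and the Ifit3 stretch is chr19:34583358-34583397 on the plus strand. Rsad2 is read at chr12:26456548-26456587 on the minus strand, Igtp at chr11:58199507-58199546 on the plus strand and Gbp2 at chr3:142620589-142620628 on the plus strand. Isg15 is read at chr4:156200866-156200905 and Oas3 at chr5:120777710-120777749, both on the minus strand. Irgm is read at chr11:48871426-48871465 on the minus strand and Stat2 at chr10:128270261-128270300 on the plus strand. All 9 stretches lie upstream of the annotated start. Ifit1 and Ifit3 each held a second core in the same window, Irgm held a second that overlaps the one in capitals, and Isg15 held 3 that overlap. The core was thus present in members with very different patterns: among members called higher in the HSC subsets it was found in 12 of the 17 with a window, and among the others in 6 of 12. A match of letters is a description and does not show that a factor binds there, and a window without a match lacks only these letters.

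Depth and identity of the arrays bear on all that follows. The unnumbered LT-HSC array was the dimmest, with a 75th percentile of spot intensity of 53.1 before normalization. Most labels matched their markers: Ly6a, Hlf and Procr were all higher in the HSC subsets, the 4 GMP markers were higher in GMP and the 4 MEP markers were higher in MEP. Hlf and Procr did not overlap between the sides, but Ly6a, the transcript of the sort marker Sca-1, did. It was at 8.95 to 10.25 in GMP, within its range in the HSC subsets (8.28 to 10.96), against 6.38 to 7.78 in CMP and 5.10 to 6.22 in MEP. In GMP it was called higher than the mean of the others, by 1.28 ± 0.40 (SE, adjusted p = 0.0399), although GMP were sorted without Sca-1; the surface protein was not measured on these arrays. Flt3, the marker of MPP, did not set MPP apart from CMP: it was at 9.77 to 10.12 in MPP and at 8.16 to 10.26 in CMP, and at most 8.90 elsewhere. The summed GMP markers of ST-HSC (321579 to 524227) also lay within the range of CMP (248102 to 539992), below GMP (590206 to 896090). The LT-HSC arrays went partly against their label. All 4 MEP markers (Gata1, Klf1, Epor and Car1) and 3 of 5 B cell markers were higher there than in ST-HSC and MPP, as were 1 of 4 T cell, 1 of 4 mature erythroid and 1 of 4 plasmacytoid dendritic cell markers. The B cell marker Ms4a1 was at 8.92 and 10.06 on the LT-HSC arrays against 2.99 to 6.62 in ST-HSC and 3.06 to 4.59 in MPP. Counts are therefore also given without both LT-HSC arrays. The arrays were scanned in 3 runs on 6 slides. Run 1 held only myeloid arrays, run 3 held only arrays of the HSC subsets, and run 2 held the unnumbered array of every population other than LT-HSC.

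Among the 37 members, 32 differed over the 6 populations at an adjusted p of 0.05 in limma's moderated F-test, where 40.2% of all gene names did. At an F-test p of 1e-06, 14 members passed, against 6.08% of all gene names. The exceptions at the first threshold were Oas1g, Ifi47, Stat2, Tap1 and Tap2. Oas1g, a synthetase of the Oas1 cluster, was well above background on only 1 of 17 arrays and is given no fold.

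**Figure D1:**
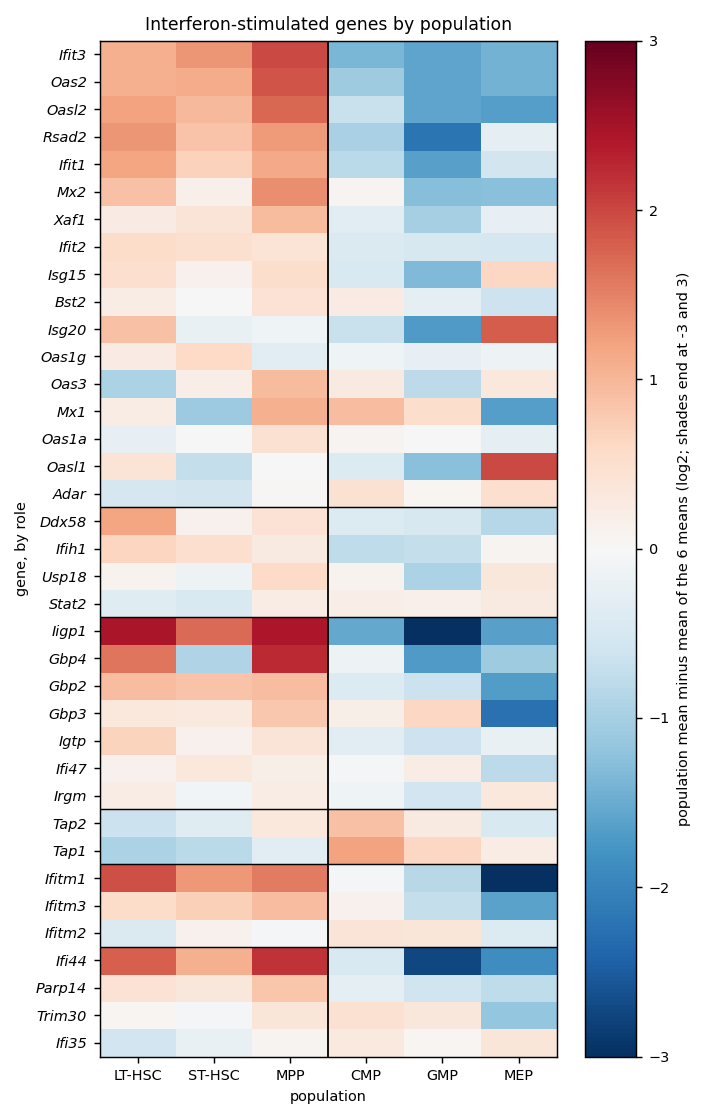
Heat map of the 37 members (vertical axis, grouped by role) in the 6 populations (horizontal axis). Shade gives the mean normalized log2 intensity of a population minus the mean of the 6 population means of that gene, and ends at -3 and 3. The members were most often highest in MPP (16 of 37) and most often lowest in GMP (15) or MEP (13).

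By population mean, 16 members were highest in MPP, 8 in LT-HSC, 7 in MEP, 4 in CMP, 2 in ST-HSC and none in GMP. The lowest mean was in GMP for 15 members, in MEP for 13, in LT-HSC for 5, in ST-HSC for 2 and in MPP and CMP for 1 each. The order of the populations can be followed as steps between their means. From LT-HSC to ST-HSC the members' median step was -0.10 on the log2 scale, with 12 members positive and 25 negative. From ST-HSC to MPP the median step was 0.47, with 32 of 37 positive. From MPP to CMP it was -0.73, with 30 of 37 negative, and from CMP to GMP it was -0.50, with 34 of 37 negative. The step from CMP to MEP was smaller in the median, at -0.33, and mixed in sign, with 14 positive and 23 negative. Over all gene names the same steps had medians between -0.01 and 0.10. These steps are descriptions of means and were not tested singly.

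The first comparison asks whether the genes differ between the HSC subsets and the myeloid populations. The members were mostly higher in the HSC subsets: 23 of 37 were called higher and 3 lower in limma, against 21.7% of all gene names called higher and 19.1% called lower. The median difference of the members was 0.80 on the log2 scale, while that of all gene names was 0.04. For 13 members every HSC array lay above every myeloid array, which held for 3.1% of all gene names, and for no member did every HSC array lie below, which held for 4.08%. Without both LT-HSC arrays 25 members were called higher and 2 lower, against 6067 and 5407 of all gene names. In bulk samples such as these, fewer cells that carry a transcript and less of it per cell cannot be told apart.

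The largest differences among antiviral effectors were in Ifit3, Oas2, Oasl2 and Rsad2. Ifit3 belongs to a family of proteins that bind foreign RNA. Its normalized log2 intensity ran from 7.01 to 8.53 with a median of 7.71 on the 8 arrays of HSC subsets, and from 4.39 to 5.21 with a median of 4.82 on the 9 myeloid arrays. The 2 sides did not overlap, and the difference was 2.93 ± 0.17 (SE, adjusted p = 4.96e-08), with 2 of the 9 myeloid arrays not well above background. Oas2 makes the short oligoadenylates that activate RNase L. It ran from 9.04 to 10.30 with a median of 9.42 in the HSC subsets and from 6.13 to 7.39 with a median of 6.68 in the myeloid populations, a difference of 2.71 ± 0.16 (SE, adjusted p = 5.83e-08). Oasl2, a related synthetase, ran from 11.01 to 12.07 with a median of 11.47 against 8.20 to 9.64 with a median of 8.80, a difference of 2.60 ± 0.12 (SE, adjusted p = 5.65e-09). Again no array of one side reached the other. Rsad2 (viperin), which makes a chain-terminating nucleotide, ran from 8.89 to 9.85 with a median of 9.35 against 5.67 to 8.48 with a median of 7.17, a difference of 2.30 ± 0.17 (SE, adjusted p = 4.61e-07).

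In all, 10 of the 17 antiviral effectors were called higher and 1 lower. Ifit1 was higher by 2.00, Mx2 by 1.63, and Xaf1, a partner of the apoptosis inhibitor XIAP, by 1.05. Ifit2 was higher by 0.97, but a second probe of that gene was called in the opposite direction, at -1.14, so its direction depends on the probe. Isg15, a ubiquitin-like protein that is joined to other proteins, was higher by 0.78, and Bst2 (tetherin), which holds budding virus at the cell surface, by 0.43; for both the sides overlapped. Adar, which edits adenosines in double-stranded RNA, was lower by 0.67 in the HSC subsets (-0.67 ± 0.15, SE, adjusted p = 0.00238). Isg20, an RNA exonuclease, Oas1a, Oas3, Oasl1, Mx1 and Oas1g were not called, and those other than Oas1g had differences between -0.21 and 0.36. A second probe of Adar gave -0.02, and a second probe of Oas3 gave -0.72.

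**Figure D2:**
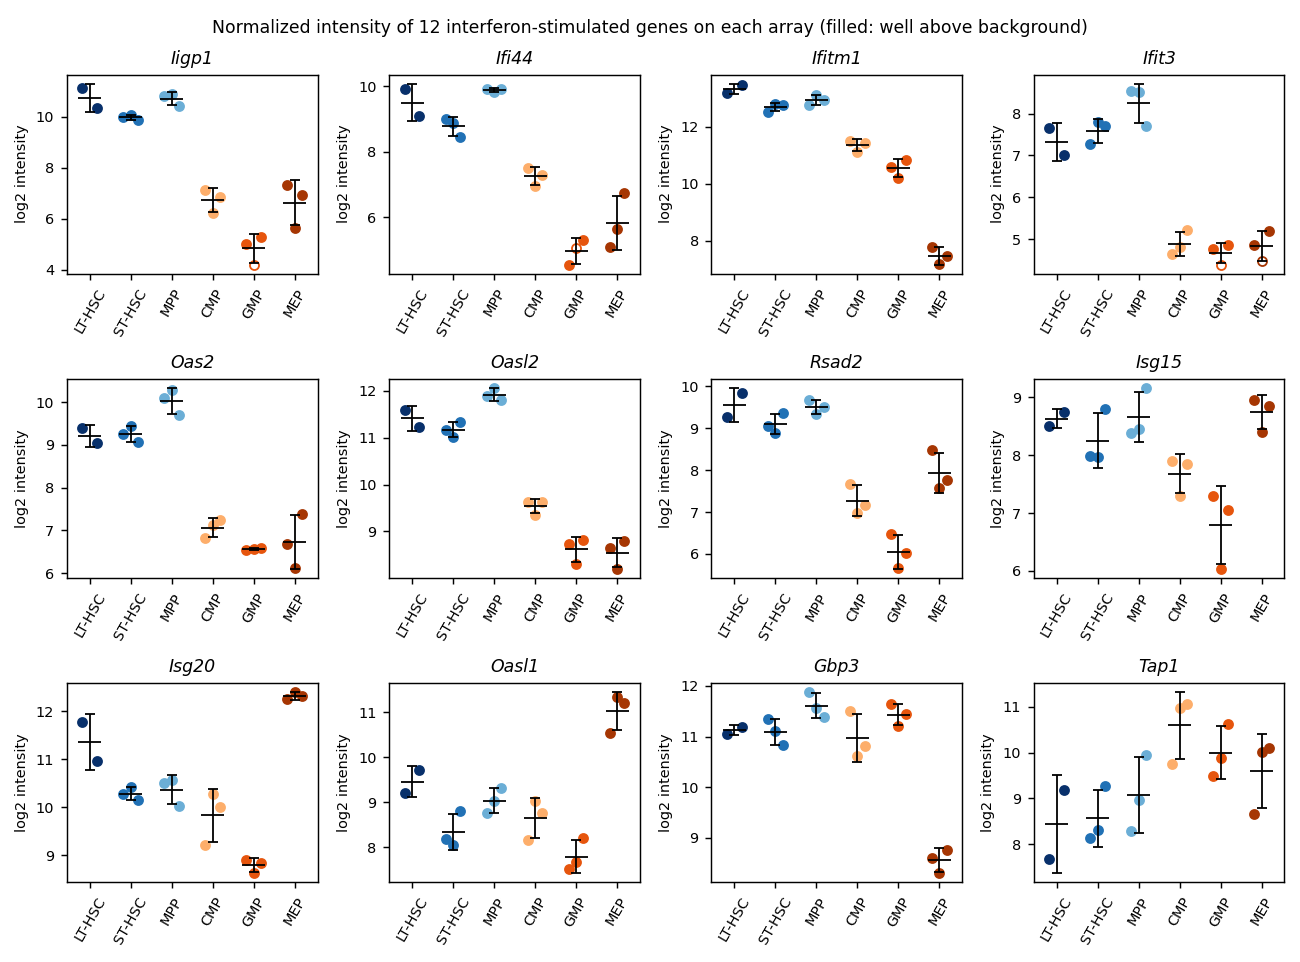
Normalized log2 intensity (vertical axis) of 12 members on each array, by population (horizontal axis), with the mean and SD of each population as black lines and open symbols for arrays not well above background. Iigp1, Ifi44, Ifitm1, Ifit3, Oas2, Oasl2 and Rsad2 were higher on every HSC array than on every myeloid array, and Isg20 and Oasl1 were highest in MEP.

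Of the GTPases that interferon gamma induces, 5 of 7 were called higher and none lower. These proteins act at the membranes around intracellular pathogens. Iigp1 had the largest difference of all members. Its arrays ran from 9.88 to 11.13 with a median of 10.38 in the HSC subsets and from 4.20 to 7.33 with a median of 6.22 in the myeloid populations. The gap between the 2 sides was wider than the range within the HSC subsets, and the difference was 4.40 ± 0.25 (SE, adjusted p = 4.03e-08). Gbp2 was higher by 1.82 ± 0.14 (SE, adjusted p = 4.6e-07) and Igtp by 0.80 ± 0.12 (SE, adjusted p = 0.000184), both without overlap. Gbp3 was higher by 0.95 with overlap, since CMP and GMP arrays reached the level of the HSC subsets and MEP arrays did not. Gbp4 was higher by 1.96, but it was well above background on only 5 of 8 HSC arrays and 1 of 9 myeloid arrays. Irgm, at 0.25, and Ifi47, at 0.41, did not pass the test.

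The Ifitm proteins sit in membranes and restrict the entry of viruses. Ifitm1 ran from 12.52 to 13.46 with a median of 12.87 in the HSC subsets and from 7.17 to 11.51 with a median of 10.61 in the myeloid populations. The sides did not overlap, and the difference was 3.19 ± 0.12 (SE, adjusted p = 2.06e-09), which was the smallest p of the set. Ifitm3 was higher by 1.46 ± 0.14 (SE, adjusted p = 3.68e-06), also without overlap. Ifitm2 differed by -0.23 and was not called, so 2 of the 3 neighbouring family members were higher. Probes of such close relatives may share target sequence, and cross-hybridization was not tested.

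Among sensors, signalling and feedback genes, 3 of 4 were called higher. Ifih1 and Ddx58 are the cytoplasmic RNA sensors MDA5 and RIG-I, and they were higher by 0.93 and 1.16. Their other probes did not all move the same way. A second Ifih1 probe, well above background on 2 arrays, gave -0.98, and further Ddx58 probes gave 2.36 and -0.01. Usp18, which removes Isg15 from proteins and restrains the receptor, was higher by 0.34 ± 0.13 (SE, adjusted p = 0.0461). Stat2, the factor that carries the signal to the ISRE, differed by -0.40 and was not called. Of the remaining members, Ifi44 ran from 8.44 to 9.91 with a median of 9.46 against 4.56 to 7.50 with a median of 5.64. It did not overlap between the sides, and it was higher by 3.37 ± 0.22 (SE, adjusted p = 1.2e-07). Parp14, an ADP-ribosyltransferase, was higher by 1.08 without overlap, and Ifi35 was lower (-0.46 ± 0.11, SE, adjusted p = 0.00463). Without both LT-HSC arrays Ifi35 was at -0.29 (adjusted p = 0.0652). Trim30, which restrains Toll-like receptor signalling, was called higher by 0.25 in the difference of means, while its medians ran the other way, at 10.20 in the HSC subsets and 10.41 in the myeloid populations. The low arrays were those of MEP, at 8.80 to 9.07, and CMP had the highest mean of all populations, at 10.53. A second Trim30 probe gave 1.29.

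No gene of the peptide transporter group was called higher. Over all gene names 21.7% were, so this count cannot set apart a group of only Tap1 and Tap2. Tap1 and Tap2 carry peptides into the endoplasmic reticulum for class I presentation. Tap1 ran from 7.69 to 9.95 with a median of 8.64 in the HSC subsets and from 8.67 to 11.05 with a median of 10.02 in the myeloid populations. The sides overlapped, and the difference was -1.37 ± 0.35 (SE, adjusted p = 0.00677). With the slide as a random block it was -0.86 (adjusted p = 0.146), and with the scanning run as a block it turned to 0.32. Tap2 differed by -0.46 and was not called.

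The 2 sides were sorted separately, so the sort cannot be told apart from the side on any array, run 2 included. The scanning run is also largely confounded with the 2 sides, so the comparison was repeated within run 2. That run held a single array for each population other than LT-HSC. There 35 of 37 members were higher in the HSC subsets, with a median difference of 0.60 against -0.06 over all gene names. All 23 members called higher had the same sign, which is partly built in, since the run 2 arrays are among the 17 behind those calls. The values within run 2 were 3.65 for Iigp1, 3.45 for Ifi44, 2.96 for Ifit3, 2.89 for Ifitm1 and 2.71 for Oas2. The 3 members called lower did not hold in the same way: Ifi35 was at -0.15, Adar at 0.03 and Tap1 at 0.31. On single slides of run 2, Isg15 (-0.16) and Usp18 (-0.32), both called higher, were lower in ST-HSC than in MEP. Gbp3 (-0.19) and Trim30 (-0.06), called higher too, were lower in MPP than in the mean of CMP and GMP. The other members called higher were higher in both slide comparisons. With the run as a term in the fit, 16 members were called higher and 0 lower in limma, where 0 were also lower at an unadjusted p under 0.05. In that fit 8.38% of all gene names were called higher and 7.71% lower, and the members' median was 0.64 against -0.05. The members that lost the call were Ifit2, Usp18, Igtp, Gbp3, Gbp4, Trim30 and Bst2. Tap1 then turned to 0.32, Adar was at -0.02 and Ifi35 at -0.28.

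**Figure D3:**
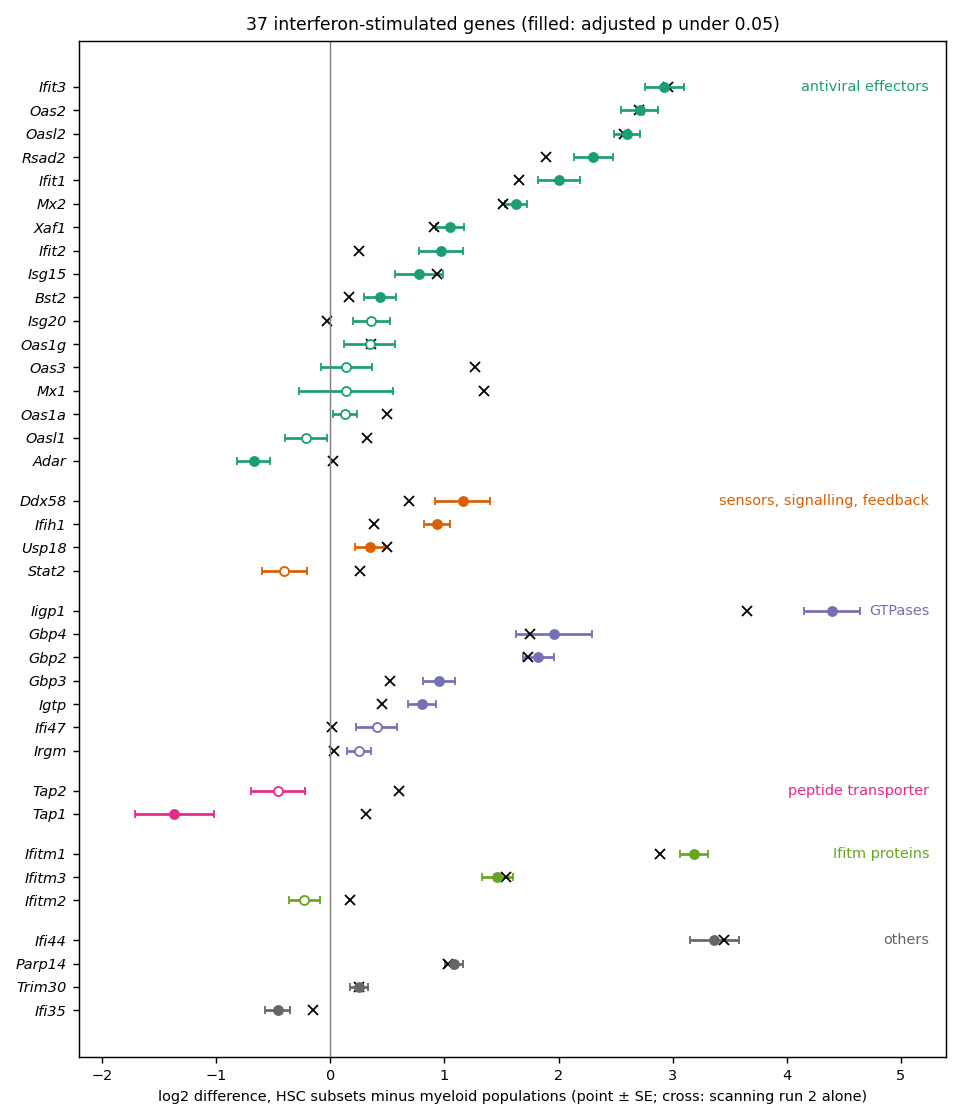
Difference in normalized log2 intensity between the HSC subsets and the myeloid populations (horizontal axis) for the 37 members (vertical axis, by role). Points are estimates over all arrays with their SE, filled where the adjusted p was under 0.05. Crosses are the difference within run 2 alone, whose arrays are part of the points too. The 23 filled points above 0 each have a cross above 0, while the crosses of Tap1 and Adar lie at 0.31 and 0.03.

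Markers of other cells moved with the same comparison. All 4 T cell markers were higher in the HSC subsets, where their summed normalized intensity was 619 to 1998 against 118 to 711 in the myeloid populations. Of the B cell markers, 4 of 5 were higher, with sums of 6517 to 72952 against 1402 to 31225, and none of the 9 myeloid arrays had Ms4a1 well above background. Of the mature neutrophil markers, 4 of 6 were higher, with sums of 74987 to 565064 against 38329 to 229190. For plasmacytoid dendritic cells, which are strong interferon producers, 2 of 4 markers were higher, with sums of 333 to 18962 against 110 to 2156, and none of the 8 HSC arrays had the defining marker Siglech well above background. Of the NK cell markers 1 of 3 was higher, with sums of 3882 to 19702 against 1051 to 58544. Of the mature erythroid markers 2 of 4 were higher and 1 lower, with sums of 7247 to 23502 against 466 to 56783. Of the monocyte and macrophage markers 1 of 5 was higher and 2 lower, with sums of 919 to 4125 against 357 to 11993. Their part in the result was not tested. Choosing another scale also mattered for the background: scaling to the 75th percentile moved the median of all gene names to 0.37 and their calls to 8388 higher and 3609 lower, from 6083 and 5355, while the members' median was 0.79 and 21 were called higher and 3 lower.

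The next comparison set GMP, the progenitor of granulocytes and macrophages, against the mean of the other populations. It shares its arrays with the first comparison, and the 2 lists of calls are given side by side and not as separate support. In GMP 22 members were called lower and 2 higher, against 10.1% of all gene names called lower and 9.93% called higher. The members' median was -0.78, or -0.75 with members that were below background on one side taken at their bound, against -0.05 for all gene names. Scaling to the 75th percentile moved the median of all gene names to -0.32 and their calls to 2075 higher and 3121 lower, from 2788 and 2835. The members' median was then -0.75, with 22 called lower and 1 higher, so the gap to all gene names was smaller on that scale. For 8 members all 3 GMP arrays lay below every other array: Iigp1, Rsad2, Isg20, Ifit1, Isg15, Xaf1, Usp18 and Irgm. That held for 2.58% of all gene names. For no member did all 3 lie above every other array, as they did for 3.04% of all gene names. Without both LT-HSC arrays 22 were called lower and 2 higher, against 2413 and 2235 of all gene names.

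Iigp1 was at 5.02, 4.20 and 5.30 on the GMP arrays, of which 4.20 was not well above background, and no other population had an array below 5.64. The difference was -4.11 ± 0.32 (SE, adjusted p = 1.78e-06). Rsad2 was at 6.48, 5.67 and 6.01 in GMP and no lower than 6.96 elsewhere, a difference of -2.62 ± 0.22 (SE, adjusted p = 3.34e-06). Ifi44 was at 4.56, 5.06 and 5.32 in GMP, but MEP arrays at 5.11 and 5.64 lay in or near that range, and the difference from the mean of the others was -3.27 ± 0.28 (SE, adjusted p = 3.77e-06). Isg20 was at 8.90, 8.63 and 8.84 in GMP and no lower than 9.20 elsewhere, and differed by -2.04 ± 0.21 (SE, adjusted p = 1.65e-05). Isg15 was at 7.29, 6.04 and 7.06 in GMP, and its highest GMP array and lowest CMP array were equal at this rounding. It differed by -1.60 ± 0.27 (SE, adjusted p = 0.000861). In GMP no array had Gbp4 well above background, which makes it at least 1.07-fold lower, and its fitted difference had an adjusted p of 0.00421.

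By role, 11 of 17 antiviral effectors, 5 of 7 GTPases, 2 of 4 sensors and feedback genes and 2 of 3 Ifitm genes were lower in GMP. Neither transporter gene was called, at 0.74 for Tap1 and 0.32 for Tap2. The exceptions in the other direction were Gbp3 and Trim30. Gbp3 was at 11.64, 11.21 and 11.45 in GMP, within the range of the HSC subsets (10.82 to 11.88), and was higher than the mean of the others by 0.76 ± 0.19 (SE, adjusted p = 0.0101). That mean holds the MEP arrays, which were at 8.31 to 8.77. Trim30 differed by 0.40 ± 0.10 (SE, adjusted p = 0.0116) in the same setting, with MEP at 8.80 to 9.07. Both calls were lost without the unnumbered GMP array (Gbp3 0.66, adjusted p = 0.0649; Trim30 0.39, adjusted p = 0.0507) or without GMP replicate 2 (Gbp3 0.75, adjusted p = 0.0523; Trim30 0.39, adjusted p = 0.0666). With all probes averaged, Trim30 was at -0.0025.

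Within run 1, which held replicates 1 and 2 of CMP, GMP and MEP, 18 of the 22 members called lower in GMP were below the mean of CMP and MEP, and the members' median was -0.32 against -0.01 for all gene names. The opposite sign was seen for Gbp2, Ifitm1, Ifitm3 and Parp14, which MEP had at lower levels still. Other markers also moved with GMP. All 5 monocyte and macrophage markers were higher there, with sums of 7113 to 11993, and all 4 mature erythroid markers and 3 of 4 T cell markers were lower. Of the plasmacytoid dendritic cell markers 2 of 4 were lower, with sums of 110 to 186: Ly6d differed by -4.27, without overlap, and Cox6a2 by -2.29, while no GMP array had Siglech well above background. Of the B cell markers 1 of 5 was higher and 1 lower, with sums of 11560 to 14490, and of the NK cell markers 1 of 3 was higher and 1 lower, with sums of 27915 to 58544. None of the 6 mature neutrophil markers was called. The part of these markers in the result was not tested.

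MEP, the progenitor of platelets and red cells, was then set against the mean of the other populations. In MEP 17 members were called lower and 5 higher, against 15.1% of all gene names called lower and 15.8% called higher. The members' median was -0.62, or -0.49 with bounds, and that of all gene names was 0.00. Without both LT-HSC arrays 17 were lower and 4 higher, against 4257 and 4746 of all gene names. All 3 MEP arrays lay below every other array for Gbp2, Gbp3, Trim30, Ifitm1 and Ifitm3, and above every other array for Isg20 and Oasl1. Of all gene names, 6.82% lay below in this way and 7.59% above.

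Ifitm1 was at 7.79, 7.17 and 7.47 in MEP, while GMP had 10.61, 10.22 and 10.84 and CMP had 11.51, 11.12 and 11.44. The 3 myeloid populations did not overlap each other, and MEP differed from the mean of the others by -4.70 ± 0.16 (SE, adjusted p = 9.36e-10). The probe lies at chr7:148155455-148155514 in the mm9 coordinates of the array files. Ifitm3 was at 10.51, 10.20 and 10.65 in MEP and differed by -1.92 ± 0.18 (SE, adjusted p = 2.49e-06). Gbp3 was at 8.61, 8.31 and 8.77 and no lower than 10.61 on any other array, a difference of -2.69 ± 0.19 (SE, adjusted p = 1.45e-07). Gbp2 was at 6.99, 6.90 and 7.39, below the lowest GMP array at 7.92, a difference of -2.00 ± 0.18 (SE, adjusted p = 1.3e-06). Ifi44 differed by -2.25 ± 0.28 (SE, adjusted p = 3.17e-05) and Oasl2 by -1.98 ± 0.15 (SE, adjusted p = 3.29e-07). Ifit3 differed by -1.71, Oas2 by -1.69 and Mx2 by -1.49, and in each of these 5 MEP overlapped with GMP. Iigp1 differed by -1.96, with MEP arrays from 5.64 to 7.33 that overlapped CMP and lay above GMP. No MEP array had Mx1 well above background, which makes it at least 1.38-fold lower, and its fitted difference had an adjusted p of 0.0117. Gbp4 was below background on all MEP arrays too, and its bound gives no fold.

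Against that direction stood Isg20 and Oasl1. Isg20 was at 12.24, 12.40 and 12.30 in MEP, above the LT-HSC arrays at 11.77 and 10.95. It was higher than the mean of the others by 2.19 ± 0.21 (SE, adjusted p = 2.74e-06), and a second probe gave 2.21. Oasl1, known as a brake on the translation of Irf7, was at 10.55, 11.33 and 11.21 in MEP against 7.50 to 9.71 on every other array, a difference of 2.38 ± 0.24 (SE, adjusted p = 4.21e-06). Oasl2, at chr5:115362168-115362227 in mm9, and Oasl1, at chr5:115387556-115387615, are read by neighbouring probes and differed in opposite directions in MEP. Adar (0.60 ± 0.19, SE, adjusted p = 0.0273), Ifi35 (0.42 ± 0.14, SE, adjusted p = 0.039) and Irgm (0.39 ± 0.13, SE, adjusted p = 0.0403) were also called higher in MEP, with overlap. Of 27 alternatives, the call was lost in 5 for Adar, 11 for Ifi35 and 9 for Irgm, and in 0 for Isg20 and Oasl1. Without MEP replicate 1, Adar was at 0.54 (adjusted p = 0.12) and Ifi35 at 0.47 (adjusted p = 0.075). Without MEP replicate 2, Adar was at 0.45 (adjusted p = 0.17), Ifi35 at 0.41 (adjusted p = 0.122) and Irgm at 0.40 (adjusted p = 0.106). Without the unnumbered MEP array, Ifi35 was at 0.39 (adjusted p = 0.122) and Irgm at 0.28 (adjusted p = 0.202). Leaving out CMP replicate 1 or 2 ended the calls of both Ifi35 and Irgm. That of Ifi35 also ended without MPP replicate 3 or the pooled LT-HSC array, and that of Irgm without ST-HSC replicate 2, MPP replicate 2, the unnumbered LT-HSC array or GMP replicate 1 or 2. With the scanning run as a block, Adar was at 0.21 (adjusted p = 0.318) and Ifi35 at 0.31 (adjusted p = 0.126). Within run 1, where MEP could be set only against CMP and GMP, all 5 had the same sign, as did 14 of the 17 called lower, the exceptions being Ifit3, Ifi44 and Iigp1. The members' median within run 1 was -0.05, against 0.06 for all gene names, with 18 members positive and 19 negative, so the shift of the whole set seen against the 5 other populations was not seen there. All 4 mature erythroid markers were higher in MEP, with sums of 17737 to 56783, and all 5 monocyte and macrophage markers were lower, with sums of 357 to 506. Of the others, 3 of 5 B cell, 2 of 4 plasmacytoid dendritic cell, 1 of 4 T cell and 1 of 3 NK cell markers were lower, and none of the 6 mature neutrophil markers was called. Their part in the result was not tested.

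**Figure D4:**
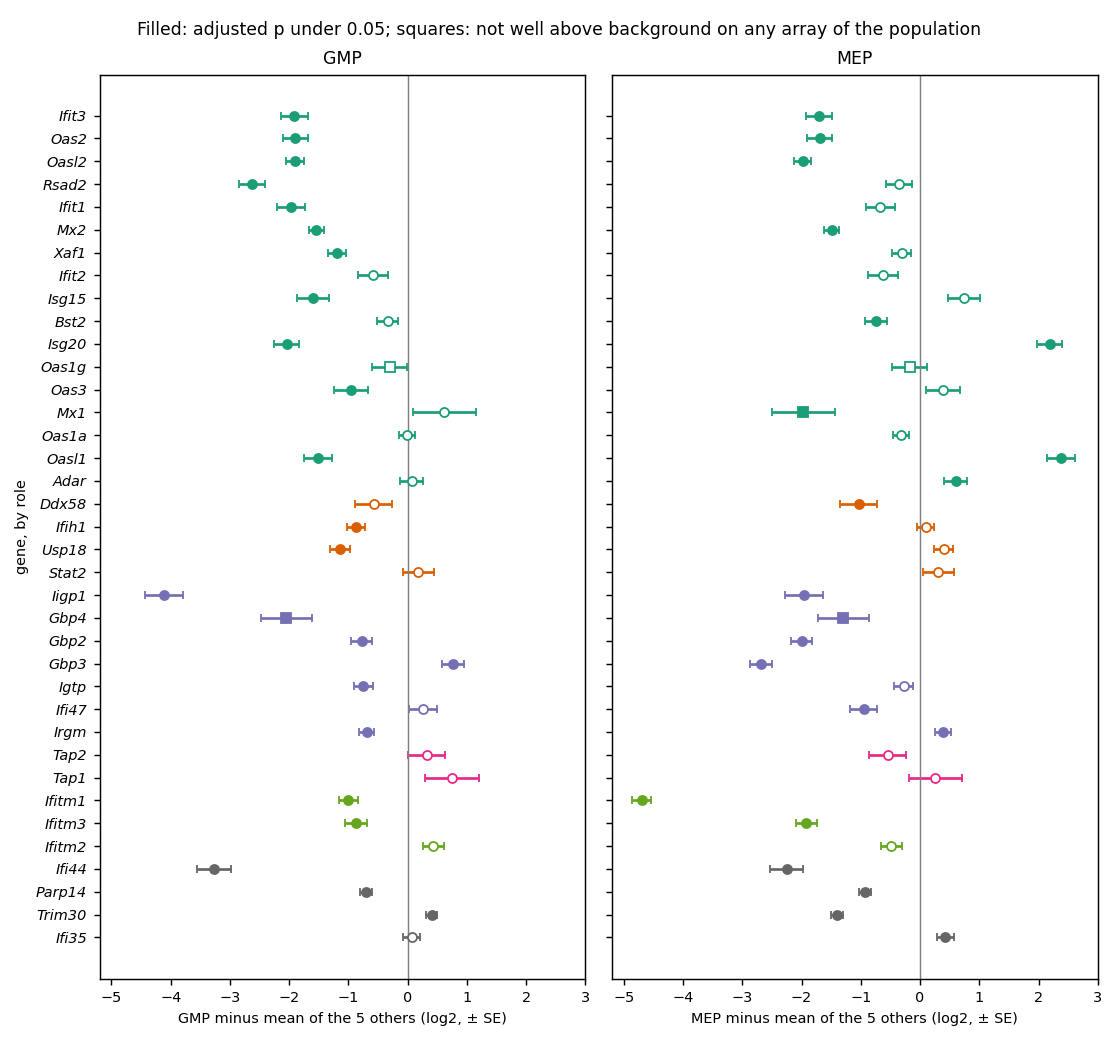
Difference in normalized log2 intensity (horizontal axes) of GMP, in the left panel, and of MEP, in the right panel, from the mean of the 5 other populations for the 37 members (vertical axis, by role). Points are estimates with their SE, filled where the adjusted p was under 0.05 and square where no array of that population had the member well above background; the panels share arrays. Isg20 and Oasl1 lie below 0 in GMP and above 2 in MEP, and Gbp3 and Trim30 lie above 0 in GMP and below -1 in MEP.

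The 3 sets of calls can be laid side by side for each member as a description. They share arrays, so a gene that is higher in the HSC subsets is partly bound to be lower in GMP or MEP, and no pattern was tested. The commonest, with 11 members, was higher in the HSC subsets and lower in both GMP and MEP, which held for 4.19% of all gene names. A further 7 were higher in the HSC subsets and lower in GMP without a call in MEP, as were 3.06% of all gene names. Gbp3 and Trim30 were higher in the HSC subsets, higher in GMP and lower in MEP. Ddx58 and Bst2 were called higher in the HSC subsets and lower in MEP, and Ifit2 only higher in the HSC subsets. Isg20, Oasl1 and Irgm were lower in GMP and higher in MEP, and Oas3 was only lower in GMP. Mx1 and Ifi47 were only lower in MEP. Adar and Ifi35 were lower in the HSC subsets and higher in MEP, and Tap1 was only lower in the HSC subsets. Oas1a, Oas1g, Stat2, Tap2 and Ifitm2 had no call in any of the 3, where 49.5% of all gene names had none.

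Many of these calls depend on the processing. Of the 23 members called higher in the HSC subsets, 13 kept the call under all 27 alternatives tried, as did 16 of the 22 lower in GMP, 11 of the 17 lower in MEP and 2 of the 5 higher in MEP. None of the 3 lower in the HSC subsets and neither of the 2 higher in GMP did. Usp18 lost its call in the HSC subsets in 16 alternatives, 11 of which left out 1 array (0.28 to 0.35, adjusted p from 0.0594 to 0.12), and turned to -0.09 with the replicate number as a block. Those arrays were the unnumbered one of every population, replicate 1 of CMP, GMP and MEP, and replicate 3 of ST-HSC and MPP. Bst2 lost the same call in 10, among them leaving out replicate 2 or 3 of ST-HSC or MPP, the pooled LT-HSC array or replicate 1 of GMP or MEP (0.38 to 0.42, adjusted p from 0.0509 to 0.0767). Trim30 lost it in 5, one of them without the pooled LT-HSC array (0.22, adjusted p = 0.0534). Isg15 lost its call in the HSC subsets with the replicate block and on the 10 numbered arrays without it, and Ddx58 with the replicate block. The direction of Ifit2 and Ifih1 turned with the mean of all probes, to -0.08 and -0.02. In GMP, Oas3 lost its call in 6 alternatives, among them without any one GMP array (-1.06 to -0.83, adjusted p from 0.0748 to 0.16). Ifitm1 and Ifitm3 lost their GMP calls with the replicate block and on the 10 numbered arrays without it, and Gbp2 on the latter. Ifih1 and Parp14 lost theirs with the mean of all probes. In MEP, Gbp4 lost its call in 11, among them without replicate 1 or 2 of MEP or GMP, replicate 2 of CMP or replicate 2 or 3 of MPP, and no MEP array had it above background. Ddx58 lost its MEP call in 4, among them without the unnumbered MEP array or MEP replicate 1 (-1.03 to -0.72, adjusted p from 0.0751 to 0.153). Mx1 lost its own without the unnumbered MEP array (-1.24, adjusted p = 0.107) and Ifi47 without MEP replicate 1 (-0.76, adjusted p = 0.0587).

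Within the HSC subsets, LT-HSC were set against the mean of ST-HSC and MPP. Here 1 member was called higher and 1 lower, against 5.53% and 2.45% of all gene names, and the members' median was 0.02 against -0.04. Isg20 was at 11.77 and 10.95 in LT-HSC and between 10.02 and 10.57 on the 6 other arrays, a difference of 1.04 ± 0.27 (SE, adjusted p = 0.0311). Without the pooled LT-HSC array it was 0.63 (adjusted p = 0.239), and without ST-HSC replicate 2, the unnumbered ST-HSC array or the unnumbered MPP array the adjusted p was 0.0508, 0.0518 and 0.0518. Oas3 was at 5.85 and 5.09 in LT-HSC, the second not well above background, and between 5.95 and 7.83 on the other arrays, a difference of -1.51 ± 0.37 (SE, adjusted p = 0.0245). Without the unnumbered LT-HSC array it was -1.14 (adjusted p = 0.322). Isg20 was also called higher in MEP, whose markers were high in these LT-HSC arrays, and the part of those markers was not tested. Scaling to the 75th percentile moved the median of all gene names here to 0.23 and their calls to 4039 higher and 442 lower, from 1554 and 689.

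The members' levels also differed between slides in the myeloid arrays. On slide 1, which held replicate 1 of CMP, GMP and MEP, 27 to 29 of the 37 members lay below the mean of their own population, with medians from -0.20 to -0.11. On slide 2, with replicate 2 of the same populations, 25 to 29 lay above it, with medians from 0.13 to 0.21. Slide and replicate number cannot be told apart on these 2 slides, and the shift was not tested. Slides 3, 4 and 6 had medians between -0.01 and 0.06 and slide 5 between -0.10 and 0.11.

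**Figure D5:**
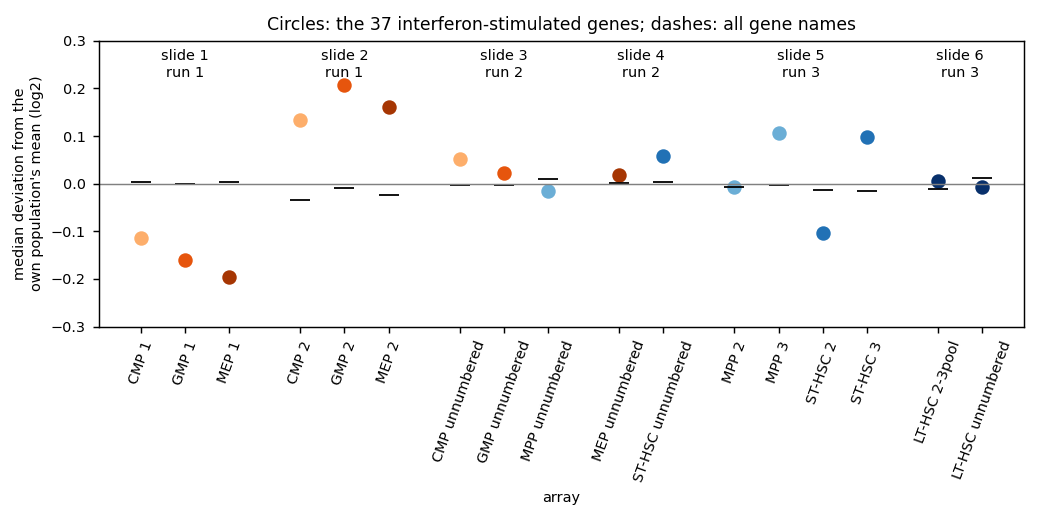
Median deviation from the own population's mean (vertical axis, log2) on each of the 17 arrays (horizontal axis, ordered by slide), for the 37 members (circles) and for all gene names (dashes). The circles of slide 1 lie between -0.20 and -0.11 and those of slide 2 between 0.13 and 0.21.

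The other genes of the interferon pathway were read from a list of 33, of which 31 were on the array. Between the HSC subsets and the myeloid populations 15 were called higher and 1 lower, against 21.7% and 19.1% of all gene names. Their median was 0.51, and that of all gene names was 0.04. These values come from the fit without a term for the scanning run, and none within run 2 are given for the pathway genes. Among the ligands, Ifng, which encodes interferon gamma, was well above background on all 8 HSC arrays and on the 3 MEP arrays, and on no CMP or GMP array. It was at 7.95 and 6.90 in LT-HSC, 5.05 to 6.18 in ST-HSC, 3.91 to 5.21 in MPP and 4.88 to 5.15 in MEP, and was higher in the HSC subsets by 2.73. Ifna2, a type I interferon, ran from 3.80 to 6.43 with a median of 5.64 in the HSC subsets and from 2.66 to 5.16 with a median of 3.91 in the myeloid populations. It was well above background on 6 of 8 HSC arrays and 3 of 9 myeloid arrays, the sides overlapped, and it was higher in the HSC subsets by 1.44 ± 0.32 (SE, adjusted p = 0.00294). Ifnb1 was well above background on 2 arrays, Ifna4 on 1 and Ifnk on 0. Of the receptors, Il10rb was higher by 0.65 and the interferon gamma receptor chains Ifngr1 and Ifngr2 were not called in this comparison.

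Of the kinases, Jak1 was higher in the HSC subsets by 0.79, and Tyk2 was the one pathway gene that was lower, at -2.00. The factors Irf1 and Irf2 were higher by 1.06 and 1.30. The feedback genes Socs1 and Socs3, which switch cytokine receptors off, were higher by 1.98 and 3.87 with no overlap between the sides. Socs3 stood at 13.34 ± 0.07 (SD, n = 3) in MPP and at 10.80 ± 0.65 (SD, n = 3) in CMP. In GMP and MEP it was lower again, at 7.76 ± 0.37 and 7.67 ± 0.22 (SD, n = 3 each).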

How the data were processed

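Each array gave the mRNA level of 1 sorted population. In the scanner output that the authors deposited, the Agilent software had already subtracted the background from each spot intensity, and arrays had not been brought to a common scale. A second deposited file held log2 values that the authors had quantile normalized. Matched by spot order, it lay within 0.33 of the median spot signals normalized in the same way, and it served as an alternative.

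For the 17 arrays, log2 intensities were quantile normalized in limma 3.58.1 under R 4.3.3, as the study's methods state; the limma version used by the authors was not given in the sources used here. The 1639 control spots and 161 probe values marked as outliers were left out, and spots of a probe were averaged, which left 41174 probes and 28090 gene names. The limma functions lmFit and eBayes were run with one mean per population over all arrays, and p-values of each contrast were adjusted by Benjamini-Hochberg over all gene names with a threshold of 0.05. Where no array of one side had a member well above background, only a lower bound or no fold is given. The number of arrays limits the precision. Arrays with the same replicate number were not treated as pairs.

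The members, the pathway list, the marker lists and the tests were chosen with earlier results of these data known. All 37 members are named by role, with full statistics for the 5 largest changes each way per contrast; further members were given values after these had been seen. Alternatives for the values were the authors' table, scaling to the 75th percentile, normexp correction (offset 50), averaging all probes of a gene, and a filter that kept 19783 gene names well above background on at least 2 arrays. Alternatives for the model were blocks for scanning run, slide (random) or replicate number. Arrays were also left out, one at a time or both of LT-HSC. A fit to the 10 numbered arrays without the block was added after the data were seen. Promoter windows came from RefSeq on GRCm38.p6, while probe coordinates in the array files are on mm9. The values of 1 gene of the pathway list and 1 gene of the marker lists are not reported here, though they are part of the counts.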

Additional observations from a re-analysis of the deposited data

Results flagged for a closer look

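An array lay far from the rest of its side in 2 of 74 groups of arrays examined. Chance would give about 1 in 20 for arrays of 1 population, but each side mixed populations with different means, so that rate is no measure here. Ifi35 was at 10.32 on GMP replicate 1, while the nearest of the other 8 myeloid arrays was at 10.64. Ifih1 was at 9.56 on the unnumbered MPP array, while the nearest of the other 7 arrays of HSC subsets was at 9.96.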

How the results depend on the processing

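The number of members that differed over the populations was 28 to 34 under the alternatives tried, against 32. Apart from fits that left out 1 array, members called higher in the HSC subsets numbered 16 to 25 against 23, those lower in GMP 19 to 22 against 22, and those lower in MEP 17 to 20 against 17. Over all gene names the same counts ran from 2353 to 8903, 2392 to 4688 and 3799 to 5770. Without MEP replicate 1, 14 of the 17 calls lower in MEP were kept, and without the unnumbered MEP array 15 were. The smaller lists moved more. Members lower in the HSC subsets went from 3 to 0 with the scanning run as a block (0 at an unadjusted p under 0.05). They went to 7 with the replicate block and to 6 on the 10 numbered arrays without it. Of all gene names 5355 were lower in the main fit, and 2167, 5429 and 6955 in these 3 fits. Members higher in GMP went from 2 to 1 with the 75th percentile, 1 with the mean of all probes and 5 with the replicate block. Gene names higher in GMP went from 2788 to 2075, 3066 and 3438. Members higher in MEP went from 5 to 9 with the replicate block, and all gene names from 4443 to 5529. Members higher in LT-HSC went from 1 to 2 with normexp, 2 with the run block and 0 with the slide block. Gene names higher in LT-HSC went from 1554 to 1075, 2339 and 466. Members lower in LT-HSC went from 1 to 0 with normexp, the authors' table, the slide block and the mean of all probes. In these fits 8, 7, 3 and 4 members were lower at an unadjusted p under 0.05 in limma. Gene names called lower in LT-HSC went from 689 to 740, 717, 134 and 751. Leaving out 1 array at a time gave 0 to 2 members higher in GMP, 2 to 6 higher in MEP, 0 to 1 higher in LT-HSC and 0 to 1 lower in LT-HSC. The direction turned for Tap1 with the run block, to 0.32, for Usp18 in the HSC subsets with the replicate block, to -0.09, and with the mean of all probes for Ifit2 (-0.08) and Ifih1 (-0.02) in the HSC subsets and for Trim30 in GMP, to -0.0025. Over all 74 calls of single members, 1874 of 1992 values under alternatives kept direction and call, 113 kept only the direction and 5 turned. The cause of these changes was not tested.

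Of 14 pairs with the same replicate number, deviations from population means correlated between -0.065 and 0.53. The 8 pairs on 1 slide were all over 0.1 (mean 0.27) and the 6 across scanning runs were near 0 (mean -0.0013). On slides 1 and 2 the number cannot be told apart from the slide. Where a slide held 2 numbers, pairs of ST-HSC with MPP were at 0.53 and 0.28 with the same number and at 0.34 and 0.09 with different ones. The numbers were not treated as pairs because not every pair was over 0.1. The 19 members called higher in the HSC subsets with the replicate block rest on 3 residual degrees of freedom. No paired analysis was possible for LT-HSC, which have no replicate number shared with another population. Dim probes limit Oas1g, Gbp4 and Mx1, and the unnumbered LT-HSC array limits all dim members in LT-HSC.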

Other observations

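The rest of the interferon pathway was also read in GMP and in MEP, each set against the mean of the 5 other populations, HSC subsets included. In GMP 11 of the 31 pathway genes on the array were called lower and 4 higher, against 10.1% and 9.93% of all gene names. The 4 that were higher were both chains of the interferon gamma receptor, Ifngr1 (0.87) and Ifngr2 (0.91), the kinase Tyk2 (1.57) and Tmem173 (0.91), which encodes the DNA-sensing adaptor STING. For both receptor chains every GMP array lay above every other array, which held for 3.04% of all gene names. Ifngr2 was at 10.44 to 10.62 in GMP and at 8.86 to 8.98 in MEP.

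In MEP 15 pathway genes were called lower and 1 higher, against 15.1% and 15.8% of all gene names. Tmem173 was at 8.38 to 9.52 on the 3 MEP arrays and no lower than 12.21 on any other array, a difference of -3.98 on the log2 scale. The receptor gene Il28ra was the one called higher, by 2.67. Irf7, a factor that drives interferon production, had a mean of 8.83 ± 0.53 (SD, n = 3) in MEP and 6.67 ± 0.38 (SD, n = 3) in GMP, the highest and the lowest of the 6 population means. Of the sensors, Tlr7 was higher in the HSC subsets than in the myeloid populations by 1.32, Tlr9 by 0.78, Dhx58 by 0.86 and Eif2ak2 by 0.69. In LT-HSC, set against ST-HSC and MPP, Ifng was higher by 2.44 and Socs1 by 0.59, and markers of several cell types were high on the same 2 arrays. Among T cell markers, of a cell type known to make interferon gamma, all 4 had positive differences and Cd3g was called, at 2.49, while Cd3d was at 2.17 (adjusted p = 0.0517). The summed T cell markers were at 1172 to 1314 in LT-HSC, 619 to 658 in ST-HSC and 1830 to 1998 in MPP. All 4 MEP markers, 3 of 5 B cell markers and the plasmacytoid dendritic cell marker Ly6d (4.69) were also called higher there. The part of these markers was not tested.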
